A study of Mus musculus with 30 samples.

Results

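The control libraries of this mouse thymus study are 6 pools of mTEChi, the medullary thymic epithelial cells with high surface MHC class II, in which Aire is intact. They were chosen by their labels alone and make up 6 of the 30 samples of the series and 6 of its 16 mTEChi libraries. All 6 came from female C57BL/6J mice aged 4 to 6 weeks, and each library was made from 1000 cells sorted into lysis buffer after enzymatic digestion of the thymus and magnetic removal of CD45+ cells. They form 3 groups of 2: wild-type mice injected intraperitoneally with PBS, wild-type mice injected intraperitoneally with DMSO, and mice of the genotype Foxn1-cre, Nfe2l2+/+ for which the labels give no treatment. Foxn1-cre expresses Cre recombinase in thymic epithelium, so the last group carries the recombinase but no floxed Nfe2l2 allele. Each group served as the control of a different experiment, so vehicle, transgene and experiment cannot be told apart in any comparison between the groups. Nothing in the labels ties a library to a separate animal or says whether thymi were pooled, and p-values therefore measure the spread between libraries, which may in part be technical.

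Medullary thymic epithelial cells display the body's own tissue proteins to developing T cells, so that T cells reacting strongly to them are deleted or diverted to a regulatory fate. Aire, a nuclear protein most abundant in mTEChi, switches on a large number of genes that are otherwise restricted to peripheral tissues. Any one such gene is expressed in only a small fraction of these cells at a time, and some medullary cells go on to resemble skin, muscle, gut, tuft or endocrine cells and are called mimetic cells. A pool of sorted cells therefore adds up rare, high-expressing cells for each tissue gene, whereas antigen presentation and housekeeping genes are carried by nearly all of them.

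The 6 libraries held 2027205 to 4782924 counts over 55011 genes, with the shallowest in the PBS group and the deepest in the Foxn1-cre group. Levels are given as CPM, the counts per 1000000 counts of the library, after TMM scaling, a correction for differences in library composition, and in the order PBS replicates 1 and 2, DMSO 1 and 2 and Foxn1-cre 1 and 2. Mitochondrial genes took 1.45 to 1.91% of counts and protein-coding genes 96.14 to 96.81%. The protein-coding share includes counts of the satellite-like predicted genes described below. In DMSO replicate 1 these took 4.86% of counts and protein-coding genes 96.14%, so the 2 shares overlap. Of 4 Y-linked genes, 1 count was found in 1 Foxn1-cre library and 0 in the other 5. Markers of medullary epithelium summed to 14720 to 25100 CPM, those of thymocytes to 116.4 to 308.8, of B and plasma cells to 148.5 to 229.1, of endothelium to 83.0 to 149.7, of fibroblasts to 200.2 to 809.8, of red cells to 136.5 to 308.3 and of dendritic cells and macrophages to 1463 to 1655. The medullary sum is mainly that of H2-Ab1, a class II gene on that list, which made up most of it in every library. In bulk pools, fewer cells of a type and less RNA per cell cannot be told apart.

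Antigen presentation genes led the baseline transcriptome. Of the 20 most abundant named genes outside the mitochondrial genome, H2-Ab1, H2-Aa, H2-Eb1 and Cd74 serve the MHC class II pathway and H2-K1, H2-D1 and B2m form MHC class I. H2-Ab1, the class II beta chain (chr17:34257689-34269419, GRCm38), was the most abundant, at 12990 and 13240 CPM in the PBS pools, 10690 and 9623 in the DMSO pools and 18910 and 17810 in the Foxn1-cre pools. Its mean was 13880 ± 3748 CPM (SD, n = 6), and the 3 groups did not overlap. With 2 pools a group this is common. Between DMSO and PBS 41.3% of all tested genes did not overlap, between Foxn1-cre and PBS 53.2% and between Foxn1-cre and DMSO 60%. Cd74, the invariant chain that guides class II molecules to endosomes, stood at 9844, 9083, 6915, 6831, 12950 and 13270 CPM. Scaled by exon length, B2m, the class I light chain, was the highest of these genes at 7546 CPM per kb, followed by Cd74 at 5845 and H2-Ab1 at 5404. The others among the 20 were the cytoskeletal and keratin genes Actb and Krt17, the translation factors Eef1a1 and Eef2, the chaperones Hsp90ab1 and Hspa5, the noncoding RNA Malat1, and Fcgbp, Tmem176b, Srgn, Itm2b, Nfkbia and Reg3g. Reg3g, a secreted antimicrobial lectin of the gut, was the most uneven of the 20 on the log2 scale, at 1541, 1018, 704.7, 1615, 2104 and 2835 CPM. The 20 most abundant genes of each single library are another set, ranked over all features with mitochondrial and predicted genes included. Together they took 11.98 to 13.29% of its counts, with a mean of 12.68% ± 0.52 (SD, n = 6).

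The predicted gene Gm10800, which resembles satellite repeats and was named after its values were seen, exceeded all of the above. It reached 26760 and 26280 CPM with PBS, 36630 and 26760 with DMSO and 8975 and 16930 with Foxn1-cre. Together with the similar predicted genes Gm10801 and Gm21738 it took 3.42 to 4.86% of counts in the PBS and DMSO libraries and 1.10 and 2.07% in the Foxn1-cre libraries. Reads from repeats cannot be placed with certainty, so these levels are uncertain.

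The genes that define the sorted population were present in every pool. Aire (chr10:78030022-78043610) was at 1621, 1638, 1500, 1180, 1823 and 1930 CPM, a mean of 1615 ± 263 (SD, n = 6). Cd80, a costimulatory ligand used to mark mature medullary cells, was at 131.8, 120.3, 131.9, 97.6, 122.6 and 145.6 CPM, and the epithelial adhesion molecule Epcam at 778.9, 788.9, 766.1, 710.2, 1057 and 1099. Foxn1, the master regulator of thymic epithelium, ranged from 171.9 to 218.3 CPM. Nfe2l2, the oxidative stress regulator deleted elsewhere in the series, ranged from 80.1 to 95.9, with the Foxn1-cre pools at 90.7 and 91.4, inside the range of the wild-type pools. Of the 15 medullary markers only Ccl21a was at 0 counts in all 6 libraries, which allows up to 3 counts in each. Ccl21a has near-identical copies in the mouse genome, and no source used here says how reads shared between copies were counted.

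Gene detection was compared after thinning every library to the depth of the shallowest, 2027205 counts, by exact calculation. At that depth the PBS pools held 27556 and 26906 genes with 1 count or more, the DMSO pools 28927 and 27730, and the Foxn1-cre pools 26070 and 25375. The mean was 27094 ± 1270 (SD, n = 6), and the 2 Foxn1-cre pools had the fewest. The groups of 2 were as far apart as any of the 15 ways of pairing the 6 libraries (exact permutation p = 0.0667, the smallest this design allows, and 0.167 after adjustment over 10 library measures). Protein-coding genes made up 17597 to 18232 of the detected genes, a narrow range in which the Foxn1-cre pools were again lowest (exact permutation p = 0.267). Of 1408 olfactory receptor genes, receptors of the nose that are typical low-level tissue genes in mTECs, 621 and 584 were detected with PBS, 824 and 724 with DMSO and 352 and 339 with Foxn1-cre. DMSO replicate 1, with the most, also had the largest share of the satellite-like genes (4.86%). The Foxn1-cre pools, with the fewest, had the smallest shares (1.10 and 2.07%). The source of these olfactory receptor counts was not tested.

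**Figure D1:**
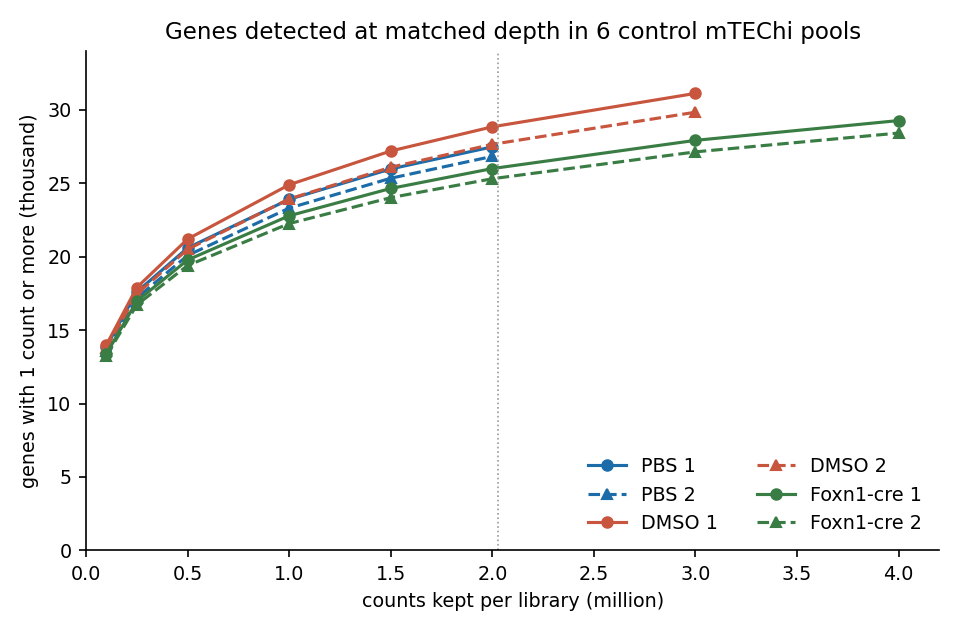
Expected number of genes with 1 count or more (axis in units of 1000 genes) against the number of counts kept (axis in units of 1000000 counts) for each of the 6 control libraries, with colour for the group, solid lines and circles for replicate 1 and dashed lines and triangles for replicate 2. The dotted line marks the common depth of 2027205 counts, where the curves are still rising and lie between 25375 genes in a Foxn1-cre library and 28927 in a DMSO library.

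Many genes were detected in some pools and not in others at this depth, where detection was still rising with the number of counts. At equal depth 39874 genes were expected in at least 1 of the 6 pools, but 17797 of them (44.6%) in all 6 and 7373 (18.5%) in 1 pool alone. Protein-coding genes recurred more often, with 15130 of 20243 (74.7%) in all 6. An Aire-induced set was taken from libraries that share no sample with these 6, namely sorted Aire-GFP+ cells on the B6 background (3 wild-type and 2 Aire-KO libraries). It holds 3152 genes that were called lower and fell by 2-fold or more in Aire-KO cells. The set is defined by that fall alone and is not limited to tissue genes. It holds 17 of 23 classic Aire-induced tissue antigens in the data. It also holds 12 of 24 interferon response genes, 9 of 30 cell cycle genes, 8 of 22 immediate early genes and 6 of 13 dendritic cell and macrophage markers. Of the 3053 members detected in any control mTEChi pool, 2283 (74.8%) were in all 6 and 34 (1.11%) in 1 alone. In single pools 2852 and 2810 members were detected with PBS, 2744 and 2678 with DMSO and 2895 and 2886 with Foxn1-cre, so the pools with the fewest genes in all had the most genes of this set. Their share of all counts was 8.67 and 8.84% with PBS, 7.99 and 7.998% with DMSO and 7.97 and 8.07% with Foxn1-cre.

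Replicate pools of the same group differed by far more than counting error. Among 14035 tested genes with a mean of 5 CPM or more, 1493 (10.6%) were 2-fold or more apart between the PBS pools, 1442 (10.3%) between the DMSO pools and 935 (6.66%) between the Foxn1-cre pools. Differences of 4-fold or more were found for 269, 379 and 144 genes. The chi-square statistic per degree of freedom, which is near 1 where only counting error separates a pair, was 6.2, 8.7 and 9.1 over genes with 20 counts or more, so no pair was a library deposited again. Pools of different groups were further apart than replicates: 11.3 to 13.5% of genes differed by 2-fold between PBS and DMSO pools, 14.3 to 17.2% between PBS and Foxn1-cre pools and 19.9 to 22.6% between DMSO and Foxn1-cre pools. The median difference within a pair was 0.27 to 0.31 on the log2 scale. The common biological coefficient of variation within groups, the relative spread left after counting error, was 0.282 in the 6 controls and 0.260 in the 10 other mTEChi libraries.

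**Figure D2:**
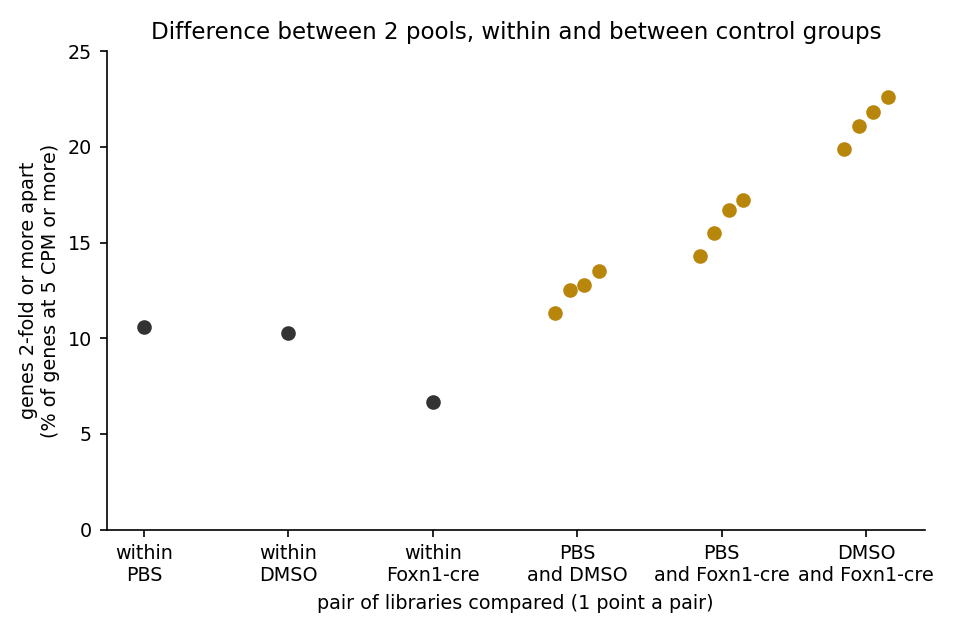
Percentage of the 14035 genes with 5 CPM or more that differ by 2-fold or more, for each of the 15 pairs of control libraries, grouped by the groups the pair comes from. The 3 replicate pairs lie at 6.66 to 10.6%, below every pair from different groups, which lie at 11.3 to 22.6%.

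In 140 genes (0.998% of those with 5 CPM or more) the replicates differed by 2-fold or more in all 3 pairs. These are the genes whose level in a pool of 1000 cells was least repeatable, and 131 of them (93.6%) are protein-coding. The difference had the same direction by replicate number in 38 of them, which has no meaning in itself because the numbers name the pools and do not pair them. The value was computed on log2 CPM with a prior count of 2, which limits the difference of genes at or near 0.

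Krt2, a keratin of the upper epidermis (chr15:101810689-101818169), had the largest smallest difference. It was at 6.92 and 0 CPM with PBS, 0.573 and 14.9 with DMSO and 14.45 and 0.465 with Foxn1-cre. Each group therefore had a pool with Krt2 and a pool nearly without it, and its 3 log2 differences were 3.70, 3.75 and 3.85 in size.

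Reg2, a secreted lectin of the pancreas, came next, at 13.5, 0, 15.5, 0, 0.850 and 10.7 CPM in the order given above. Acta1, skeletal muscle actin (chr8:123891769-123894751), was at 0 and 18.4 CPM with PBS, 84.0 and 0.280 with DMSO and 18.9 and 2.56 with Foxn1-cre. Acta1 was also 2-fold or more apart in all 5 replicate pairs of the other mTEChi groups, which the choice of these genes did not use, and Krt2 and Reg2 in 1 of 5 each.

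Metabolic genes of liver, gut and kidney were among the 15 least repeatable genes. G6pc, the glucose-6-phosphatase that releases glucose from liver, was at 35.7, 1.46, 24.9, 0, 17.2 and 3.49 CPM. Fbp1, an enzyme of glucose synthesis, was at 27.7, 4.37, 3.73, 0, 17.2 and 3.02, and Cyp4f14, a liver cytochrome P450, at 14.9, 1.46, 0, 6.17, 18.9 and 3.26. G6pc and Fbp1 were both higher in replicate 1 of each pair, but Fbp1 in DMSO replicate 1 (3.73 CPM) was below its level in PBS replicate 2 (4.37). Cyp4f14 was higher in replicate 2 with DMSO, so the pools rich in 1 of these genes were not always rich in the others. Slc6a18, a kidney transporter of glycine, was at 4.73, 22.8, 0.860, 11.2, 2.13 and 10.5 CPM, and was apart in 4 of the 5 other pairs. Fbp1 was apart in 4 of those 5 pairs too, and G6pc in 3.

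Other genes named among the 15 were Cdsn, Oas1e and Olfr523. Cdsn, corneodesmosin of the cornified skin layer, was at 24.4, 4.37, 4.30, 19.9, 13.8 and 85.4 CPM. Oas1e, a paralog of the 2'-5' oligoadenylate synthetases, was at 127.4, 15.04, 0.573, 16.3, 11.3 and 54.2, so 1 PBS pool held more than any other. Its reads could in part come from other members of that gene cluster. Olfr523, an olfactory receptor, was at 11.3, 1.94, 11.8, 0.280, 7.65 and 0 CPM, and was apart in 3 of the 5 other pairs.

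The bases before the start sites of some of these genes are shown because each of them was 2-fold or more apart in every group and was at 0 CPM in 1 pool. They are the 100 bases upstream of the RefSeq start (RefSeq, GRCm38.p6), 5′ to 3′ on the gene's strand, for the first 4 of the least repeatable genes whose window lies wholly outside the GENCODE gene model. Capitals mark the letters TATAAA or TATATA on either strand and every CG. The windows are Krt2 at chr15:101818170-101818269, Acta1 at chr8:123894776-123894875, Cyp4f14 at chr17:32917357-32917456 and Fbp1 at chr13:62888283-62888382, all on the minus strand.
Krt2: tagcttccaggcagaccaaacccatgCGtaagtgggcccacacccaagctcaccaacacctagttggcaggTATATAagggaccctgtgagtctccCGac
Acta1: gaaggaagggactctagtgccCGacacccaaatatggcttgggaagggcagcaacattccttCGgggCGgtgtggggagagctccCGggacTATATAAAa
Cyp4f14: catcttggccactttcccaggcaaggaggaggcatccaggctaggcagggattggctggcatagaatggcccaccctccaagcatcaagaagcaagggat
Fbp1: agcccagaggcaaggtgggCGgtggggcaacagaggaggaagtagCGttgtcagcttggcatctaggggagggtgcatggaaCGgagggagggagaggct
Acta1 holds overlapping copies of both motifs close to its start and Krt2 holds TATATA, while the windows of Cyp4f14 and Fbp1 hold neither run of letters. Of all 27025 promoters in the RefSeq table, 1608 (5.95%) hold TATAAA in that window on either strand, 644 (2.38%) hold TATATA, 218 hold both and 2034 (7.53%) hold at least 1 of them. CG occurs 4, 9, 3 and 5 times in the 250 bases before the 4 starts, in the order printed, against a median of 6 over all promoters. Only 105 of the 140 genes (75%) matched the table by symbol, and 77.3% of all genes with 5 CPM or more did. With fewer than 80% matched, a comparison of the whole set with other genes was void.

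Among genes with a mean of 50 CPM or more, the largest gene-wise spread was found for Epx, the peroxidase of eosinophil granules, at 9.10, 408.5, 30.7, 99.3, 57.2 and 53.7 CPM. The 2 PBS pools differed the most and the 2 Foxn1-cre pools were nearly equal. Gc, the vitamin D binding protein that liver secretes, was at 6.55, 42.7, 251.7, 17.4, 108.8 and 38.9 CPM. Bpifa1, an airway surface protein, was at 70.3, 242.6, 196.7, 7.29, 496.4 and 429.7 CPM, with 1 DMSO pool far below the other 5. Bpifa1 was apart in all 5 other mTEChi pairs, and Epx and Gc in 2 each.

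At the other end, Ly6e, a GPI-anchored surface protein, stood at 1414, 1471, 1385, 1359, 1461 and 1446 CPM, and the SD of its log2 level over all 6 libraries was 0.05. The motor protein Kif5b (210.8 to 228.8 CPM), the actin-capping subunit Capzb (238.9 to 261.6), the splicing factor Srrm1 (89.3 to 97.2) and the SUMO ligase Pias1 (72.1 to 79.4) were as even. Tmem184b, H2-T22, Ip6k1 and Fgfr1op2 were also among the 10 most even genes with 50 CPM or more.

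**Figure D3:**
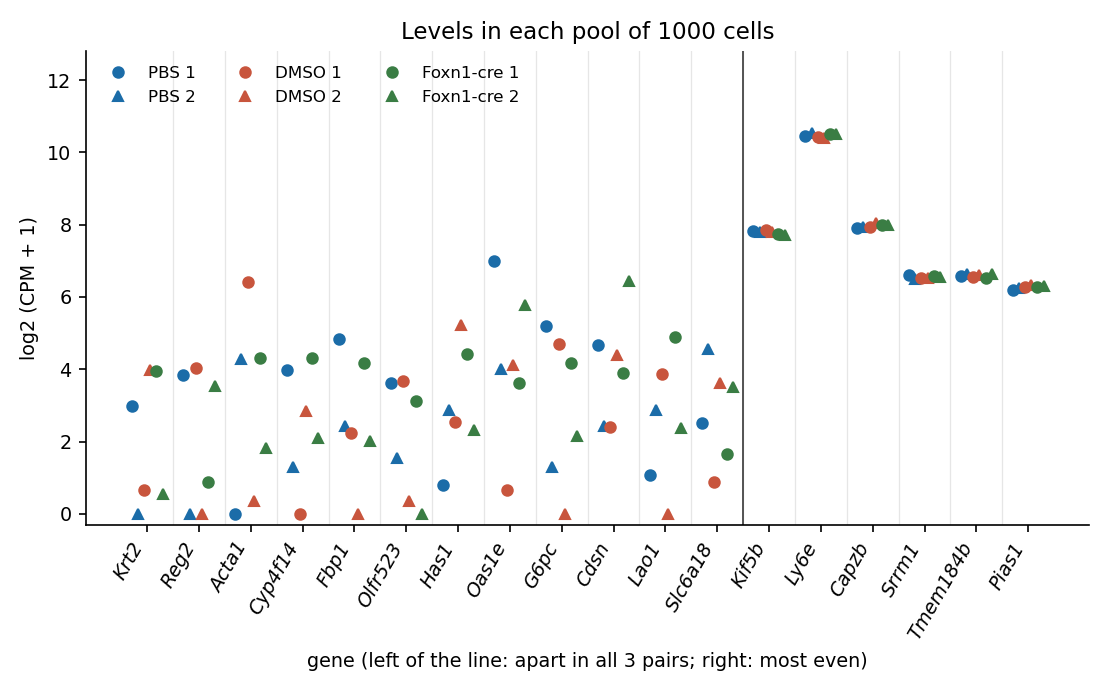
Levels as log2(CPM + 1) in the 6 control libraries for the 12 genes with the largest smallest difference between replicates and for the 6 most even genes with 50 CPM or more; colour marks the group, circles replicate 1 and triangles replicate 2. Within each colour the circle and the triangle of the variable genes lie far apart, while all 6 marks of the even genes nearly coincide.

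Of the 140 least repeatable genes, 96 (68.6%) belonged to the Aire-induced set, against 14.1% of all genes with 5 CPM or more. Counting only genes tested in the Aire-GFP+ cells, the shares were 72.2% and 14.9%. The set came from other libraries, and because spread falls with the level of a gene it was also compared within ranges of CPM. Between 5 and 20 CPM the median gene-wise coefficient of variation was 0.439 over 1021 Aire-induced genes and 0.218 over 3607 other genes tested in the Aire-GFP+ cells. Between 20 and 100 CPM it was 0.226 over 798 genes and 0.127 over 5847. Between 100 and 1000 CPM it was 0.141 over 153 genes and 0.0930 over 1774, so Aire-induced genes varied more between pools at each level where the set has members. These shares and medians describe the libraries and carry no test, because genes of 1 pool are not independent.

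Per replicate pair, on average 35.7% of the Aire-induced genes at 5 to 20 CPM were 2-fold or more apart against 14.6% of the others. At 20 to 100 CPM the shares were 14.7 and 2.61%, and at 100 to 1000 CPM they were 7.19 and 0.883%. In the 10 other mTEChi libraries, which hold treated, Nfe2l2-deficient and Aire-KO pools, the medians in the same 3 ranges were 0.449 against 0.237, 0.223 against 0.131 and 0.143 against 0.0861. The 140 genes had a median coefficient of variation of 0.630 there, against 0.154 for all genes with 5 CPM or more and 0.260 for those at 5 to 20 CPM. In those libraries 48 of the 140 (34.3%) were 2-fold or more apart in at least 3 of 5 pairs, against 3.72% of all genes and 8.01% of genes at 5 to 20 CPM.

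**Figure D4:**
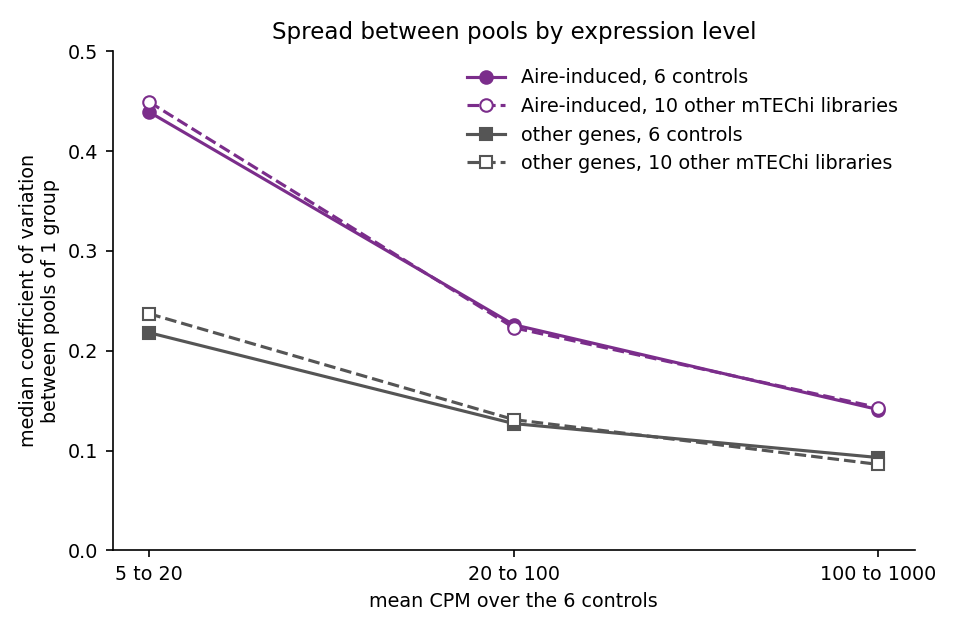
Median gene-wise biological coefficient of variation by range of mean CPM for Aire-induced genes and other genes, in the 6 control libraries (solid) and in the 10 other mTEChi libraries (dashed). The spread falls with the level in every line, from 0.439 to 0.141 for Aire-induced genes and from 0.218 to 0.0930 at the same ranges for other genes of the controls.

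Gene groups differed in how evenly the pools held them. The 12 genes of MHC class II presentation had a median coefficient of variation of 0.0419 and their summed level differed by at most 1.07-fold within a pair. The 13 class I genes had a median of 0.0477. Over all genes the median was 0.149 at 5 CPM or more, 0.0952 at 100 to 1000 CPM and 0.0786 at 1000 CPM or more. Muscle genes, markers of rare mimetic cells, had a median of 0.977, and their sums were 124.9 and 273.1 CPM with PBS, 391.9 and 91.4 with DMSO and 182.8 and 191.7 with Foxn1-cre. In the DMSO pair 10 of the 11 muscle genes were higher in replicate 1, among them Myog, a regulator of muscle differentiation, at 69.7 and 3.08 CPM, and Ckm, muscle creatine kinase, at 39.0 and 2.80.

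Members of the keratinocyte and tuft cell lists were also higher together in 1 PBS pool. Keratinocyte genes summed to 677.3 and 273.1 CPM in the PBS pools, with all 11 members higher in replicate 1, and Ivl, a protein of the cornified envelope, was at 63.0 and 2.91 CPM there. Tuft cell genes summed to 1264 and 635.6 in the same pools, with 12 of 13 higher in replicate 1. In the other pairs, 8 of 11 keratinocyte genes were higher in DMSO replicate 2 and 8 in Foxn1-cre replicate 1. Of the 13 tuft cell genes, 9 and 8 were higher in replicate 2 of these pairs. A shared direction was not particular to mimetic cell lists. Of 13 heat shock and chaperone genes, 12 were higher in PBS replicate 1, and all 20 ribosomal protein genes were higher in DMSO replicate 2. In the DMSO pair 8 of 11 neuroendocrine genes were higher in replicate 1 and 3 in replicate 2. Their sums of 647.7 and 296.4 CPM differed mainly by 1 member, Chga, a protein of hormone granules, at 411.7 and 70.7 CPM against 79.1 to 126.6 in the other 4 libraries.

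Cell cycle genes also moved together. Their sum was 1533 and 2571 CPM with PBS, 1676 and 2596 with DMSO and 2222 and 1817 with Foxn1-cre. In replicate 2, 29 of 30 members were higher in the PBS pair and all 30 in the DMSO pair, while 24 of 30 were higher in replicate 1 of the Foxn1-cre pair. Top2a, the topoisomerase of dividing cells, was at 88.1, 215.9, 162.9, 275.9, 119.9 and 103.5 CPM, and Plk1, a mitotic kinase, at 18.6, 76.7, 26.4, 55.5, 77.1 and 60.02. The groups overlapped in their sums, and the edgeR comparisons below called none of the 30 between DMSO and PBS.

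The DMSO and PBS pools were the closest pair of groups. Of 18418 genes tested, edgeR called 25 (0.136%) at an adjusted p under 0.05, 6 (0.0326%) higher and 19 (0.103%) lower with DMSO, while 2197 had an unadjusted p under 0.05. The 25 rest on little margin: 2 were called without TMM scaling and 4 without PBS replicate 2, while DESeq2 called 210. Pools of these groups did not overlap for 41.3% of all tested genes, so a lack of overlap is common.

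Lifr and Il6st, which encode the paired chains of a cytokine receptor, were called higher with DMSO. Lifr was at 618.4 and 620.5 CPM with DMSO and 256.3 and 347.4 with PBS (log2 difference 1.04, SE 0.187, edgeR adjusted p = 0.0497), and Il6st at 157.7 and 145.8 against 82.3 and 63.1 (1.06, SE 0.190, adjusted p = 0.0497). Each kept its call in 5 of 14 alternative fits and lost it whenever any of the 4 libraries was left out, with adjusted p up to 0.218 for Lifr and 0.243 for Il6st. The tight junction genes Cldn4 and Cldn3 were called lower, Cldn4 at 153.1 and 141.9 CPM with DMSO and 294.6 and 258.1 with PBS (log2 difference -0.91, SE 0.144, adjusted p = 0.0443), a call kept in 8 of 14 fits and in none that left out a library.

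Pglyrp1, a secreted antibacterial protein, was at 96.9 and 101.8 CPM with DMSO and 288.7 and 247.4 with PBS (log2 difference -1.43, SE 0.194, edgeR adjusted p = 0.0278), and lost its call only without PBS replicate 1, DMSO replicate 1 or DMSO replicate 2 (adjusted p up to 0.0846). Alb, serum albumin, had 0 counts in both DMSO pools and 36.1 and 18.4 CPM with PBS, at least 67.0-fold lower against a floor of 3 counts over the group (adjusted p = 0.0250, but 0.141 with limma-voom and 0.0586 without DMSO replicate 2). In the MHC lists the calls were small in size: H2-Aa, H2-Ab1 and H2-Eb1 of 12 class II genes, with log2 differences of -0.35, -0.37 and -0.41, and H2-D1 of 13 class I genes, with -0.42. The median difference was -0.38 over the class II list and 0.01 over all genes tested. All 4 calls were lost when either PBS library was left out, and H2-Ab1 differed by 0.03 and 0.15 within the 2 pairs.

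The Foxn1-cre pools stood further from both other groups, and the comparisons with PBS and with DMSO share the Foxn1-cre libraries. Against PBS, edgeR called 1321 of 18418 genes (7.17%), 532 (2.89%) higher and 789 (4.28%) lower. Against DMSO it called 3065 (16.6%), 1407 (7.64%) higher and 1658 (9.0%) lower. Without TMM scaling the splits were 367 higher and 957 lower against PBS and 971 and 2025 against DMSO, and without a filter on low counts 958 and 788 against PBS. The calls fell to 245 and 1167 without Foxn1-cre replicate 1. A test for any difference among the 3 groups called 2432 genes (13.2%).

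MHC class II genes were higher in the Foxn1-cre pools. Their sum was 50190 and 49100 CPM, against 36450 and 36100 with PBS and 28510 and 26770 with DMSO. Of 12 members, 5 were called higher against PBS and 10 against DMSO, none lower, with median log2 differences of 0.34 and 0.72. The shares over all genes tested were 2.89% and 7.64% higher and 4.28% and 9.0% lower. Other lists moved too: the medians were 0.33 and 0.42 over 14 housekeeping genes and 0.44 and 0.26 over 20 ribosomal protein genes. Of the latter, 10 and 4 were called higher, none lower. Against PBS the class II median was therefore not set apart from these lists, and against DMSO it was above both. H2-Aa had differences of 0.51 (SE 0.0635, edgeR adjusted p = 0.00108) against PBS and 0.87 (SE 0.0638, adjusted p = 1.38e-05) against DMSO. Ciita, the transactivator of these genes, was called in neither comparison, at 619.0, 583.2, 496.0, 416.7, 483.9 and 579.7 CPM. H2-Aa and H2-Ab1 kept both calls in all 14 fits, and 4 and 7 members at the least were called when a library was left out. Of 13 class I genes, 4 were called higher and 1 lower against PBS, and 8 and 2 against DMSO. The 4 higher calls fell to 1 and the 2 lower calls to 1 whichever library was left out.

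Some chaperone and immediate early genes were also higher in the Foxn1-cre pools. The shares of all tested genes called higher were 2.89% against PBS and 7.64% against DMSO. Of 14 housekeeping genes, 4 and 5 were called higher and 1 and 2 lower. Of 13 heat shock and chaperone genes, 4 were called higher against PBS and 6 against DMSO, none lower. The 4 fell to 2 without either PBS library or without Foxn1-cre replicate 1, and the 6 stayed at 4 or 5 with a library left out. Hspa5, the main chaperone of the endoplasmic reticulum, was at 3484 and 2734 CPM against 1737 and 1708 with PBS and 1610 and 1487 with DMSO (log2 difference 0.85, SE 0.121, edgeR adjusted p = 0.00207 against PBS). Of 20 tested immediate early genes 3 and 5 were called higher and none lower. Ier2 was at 171.3 and 159.1 CPM against 54.6 and 14.6 with PBS and 41.0 and 77.4 with DMSO, and Klf6 differed by 0.89 and 1.20 on the log2 scale. Hspa5 and Klf6 were called in all 14 fits of both comparisons. Ier2 lost its call against PBS without Foxn1-cre replicate 1 (adjusted p up to 0.0595), and that against DMSO without DMSO replicate 1 or either Foxn1-cre library (up to 0.166). The list's 3 calls against PBS became 6 without PBS replicate 1, 2 without PBS replicate 2 and 1 without Foxn1-cre replicate 1, and its 5 against DMSO became 1 without Foxn1-cre replicate 1 and 2 without any other library.

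Regulators of thymic epithelium moved in both directions. Against PBS 2.89% of all genes tested were called higher and 4.28% lower, and against DMSO 7.64% and 9.0%. Of 15 tested members of the list of these regulators 2 were called higher and 3 lower against PBS, and 5 and 4 against DMSO. With a library left out, 0 to 3 were called higher and 1 to 3 lower against PBS, and 1 to 3 and 2 to 3 against DMSO, with no higher call against PBS without PBS replicate 2 and 1 against DMSO without DMSO replicate 2. Trp63, a regulator of epithelial stem cells, was at 65.2 and 63.5 CPM with Foxn1-cre, 153.7 and 146.5 with PBS and 219.0 and 254.6 with DMSO (log2 difference -1.22, SE 0.154, edgeR adjusted p = 0.00122 against PBS and -1.88, SE 0.154, adjusted p = 3.57e-05 against DMSO). Trp63 kept both calls in all 14 fits. Eya1 and Ehf were called lower in both comparisons as well, but against PBS lost their calls without PBS replicate 1 or Foxn1-cre replicate 1, among others. Against DMSO Eya1 kept its call in all 14 fits, while Ehf lost its call without DMSO replicate 1 or either Foxn1-cre library. Fezf2, which drives a set of tissue antigens apart from Aire, was at 245.4 and 213.6 CPM with Foxn1-cre and between 115.0 and 145.6 in the other 4 pools, and was called higher in both, but lost its calls without Foxn1-cre replicate 1, without PBS replicate 2 against PBS, and without either DMSO library against DMSO (adjusted p up to 0.103). Aire itself was called only against DMSO (log2 difference 0.49, SE 0.135, adjusted p = 0.0256), and not there on library totals alone or without DMSO replicate 2 or either Foxn1-cre library (adjusted p up to 0.218).

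Single tissue genes differed between the Foxn1-cre pools and the others. For the lists below, the shares of all tested genes were 2.89% higher and 4.28% lower against PBS, and 7.64% and 9.0% against DMSO. Csn2, the milk protein beta-casein, was at 1261 and 1054 CPM with Foxn1-cre and between 487.6 and 590.4 in the other 4 pools (log2 differences 1.06 and 1.22, edgeR adjusted p = 0.0222 and 0.00554), and only the call against DMSO held in all 14 fits. Plasma proteins of the liver summed to 1415 and 1134 CPM with Foxn1-cre, 1050 and 953.8 with PBS and 513.5 and 471.9 with DMSO, and 6 of 16 tested were called higher against DMSO, none lower, while against PBS none was called higher and 1 lower. The 6 fell to 4 without DMSO replicate 1, to 1 without DMSO replicate 2 and to 3 without Foxn1-cre replicate 1. Alb had 13.2 and 11.9 CPM with Foxn1-cre, at least 29.5-fold above the DMSO pools. Rdh7, a retinol dehydrogenase, had 0 counts with DMSO and 15.7 and 18.8 CPM with Foxn1-cre, at least 40.5-fold higher, a call kept in all 14 fits. Alb and Rdh7 were present in both PBS pools as well, Rdh7 at 10.2 and 9.70 CPM. Of 10 genes of microfold cells, which sample antigen in gut and airway, 2 were called higher against PBS and 7 against DMSO, and the 7 fell to 4 without DMSO replicate 2 or Foxn1-cre replicate 2.

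Of 2712 tested genes of the Aire-induced set, 29 were called higher and 83 lower against PBS, 4.13% in all against 8.85% of the 12937 other genes. Against DMSO 209 were called higher and 127 lower, 12.4% against 19.6%. The medians of the set were 0.07 and 0.30 on the log2 scale, against 0.02 and 0.03 for the other genes. With DMSO against PBS 4 were called in each direction and the median was -0.19, against 0.02.

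Neutrophil granule genes were among the largest falls in the Foxn1-cre pools, and were gathered as a list after their values were seen. Elane, neutrophil elastase (chr10:79886247-79888215), was at 367.0 and 500.7 CPM with PBS, 92.3 and 388.6 with DMSO and 0.213 and 0.233 with Foxn1-cre. The 2 Foxn1-cre pools held 1 count each, and the ratio was 1910 against PBS (95% counting interval 528 to 15800, edgeR adjusted p = 0.00266) and 1090 against DMSO (301 to 9010, adjusted p = 0.00172). Elane kept its call in 13 of 14 fits of each comparison and lost it with limma-voom (adjusted p = 0.290 and 0.264). Ngp, neutrophilic granule protein, was at 604.1, 1283, 406.3, 288.0, 35.5 and 17.5 CPM (log2 difference -5.15, SE 1.19, adjusted p = 0.0194 against PBS), and lost that call without PBS replicate 2 or either Foxn1-cre library (adjusted p up to 0.127). Prtn3, proteinase 3, was at 138.4, 129.1, 47.3, 179.4, 7.01 and 3.26 CPM, and Mpo, myeloperoxidase, at 753.7, 854.4, 213.0, 1123, 74.0 and 107.2, the latter called in neither comparison.

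The 16 neutrophil granule genes summed to 4998 and 9517 CPM with PBS, 2682 and 3681 with DMSO and 1008 and 1039 with Foxn1-cre. Of them 8 were called lower against PBS and 4 against DMSO, beside 4.28% and 9.0% of all genes tested, and none higher. The 8 fell to 4 without PBS replicate 2, to 1 without Foxn1-cre replicate 1 and to 2 without Foxn1-cre replicate 2, and the 4 fell to 1 without DMSO replicate 2 or Foxn1-cre replicate 2 and to 2 without Foxn1-cre replicate 1. Ly6g, the surface antigen that marks mouse neutrophils, did not follow them: it was at 37.9 and 79.6 CPM with PBS, 40.1 and 122.0 with DMSO and 91.0 and 161.5 with Foxn1-cre. In the Aire-induced set 13 of the 16 are members, Elane not being one. In the separate Aire-GFP+ cells Ngp was at 80.4, 34.4 and 56.0 estimated CPM in the wild-type libraries and at 0 and 0.0793 in the Aire-KO libraries. Cd177, another of the 16, went the other way there, at 14.7, 4.86 and 26.9 against 34.6 and 32.8. In Aire-KO mTEChi pools Ngp was not uniformly low, at 145.4 and 75.3 CPM with PBS and 491.5 and 1.035 with spermidine. Mpo was at 0.868 and 110.2 and at 445.9 and 283.2 in the same pools. The 6 eosinophil granule genes did not separate the groups, with sums of 111.8, 1386, 132.5, 632.6, 430.5 and 343.8 CPM, and all 6 were higher in replicate 2 of the PBS and of the DMSO pair.

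**Figure D5:**
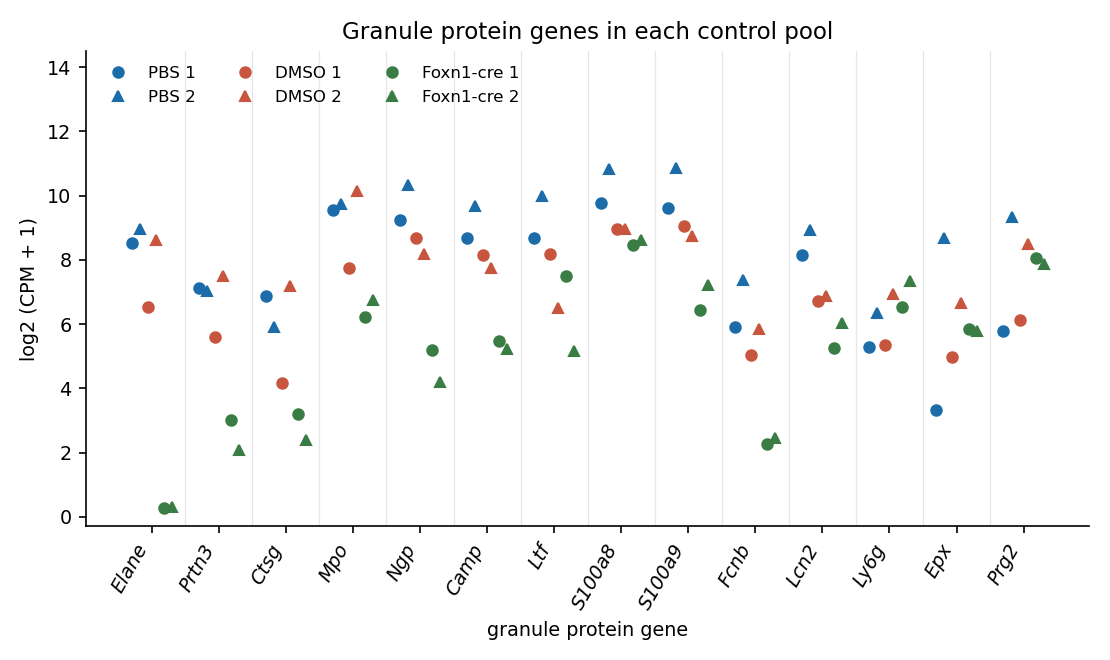
Levels as log2(CPM + 1) of 14 neutrophil and eosinophil granule genes in the 6 control libraries, with colour for the group, circles for replicate 1 and triangles for replicate 2. Elane lies near 0 in both Foxn1-cre libraries and between 92.3 and 500.7 CPM in the other 4, while Epx differs most between the PBS replicates.

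Ptprc, which encodes the CD45 antigen used for depletion and was named after its values were seen, was at 53.5 and 35.4 CPM with PBS, 54.8 and 107.4 with DMSO and 15.3 and 8.61 with Foxn1-cre (log2 differences -1.89, edgeR adjusted p = 0.00605, and -2.75, adjusted p = 0.000252). Among the PBS and DMSO pools, PBS replicate 2 had the highest granule sum and the lowest Ptprc. In the DMSO pair Ptprc and the granule sum were both higher in replicate 2. Fli1, a transcription factor of blood cells and endothelium, was at 12.4, 20.4, 11.2, 16.5, 0.213 and 1.63. Fli1 was called lower in both comparisons and kept these calls in all 14 fits of each, while Ptprc lost its call against PBS without PBS replicate 1 or Foxn1-cre replicate 2 (adjusted p up to 0.0577). Of 13 tested thymocyte markers 1 was called lower against PBS and 2 against DMSO, with median log2 differences of 0.26 and -1.0. Of 13 dendritic cell and macrophage markers 0 and 3 were called lower, with medians of -0.43 and -0.97, and of 10 fibroblast markers 0 and 2, with medians of -0.67 and -1.54. Of 8 B and plasma cell markers none was called lower, with medians of -0.19 and -0.17. Over all genes tested, 4.28% were called lower against PBS and 9.0% against DMSO, so counts this small say little about these cell types. The lists were not tested against each other. Thymocyte markers summed to 164.9 and 116.4 CPM with PBS, 308.8 and 270.9 with DMSO and 129.2 and 136.6 with Foxn1-cre, and those of dendritic cells and macrophages to 1608 and 1549, 1655 and 1591, and 1507 and 1463, of which Lyz2, a lysozyme, made up 914.9 to 1177 in each library. The part of residual blood cells in the granule gene differences was not tested.

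In the other mTEChi groups Elane was at 85.0 and 446.1 CPM in wild-type pools given spermidine and 231.9 and 533.2 in wild-type pools given topotecan. In Aire-KO pools it was at 0.434 and 58.7 CPM with PBS and at 137.0 and 166.7 with spermidine. In the Foxn1-cre pools with floxed Nfe2l2 it was at 0 and 0.177. All 4 Foxn1-cre libraries were thus near 0, and the other 12 mTEChi libraries ranged from 0.434 to 533.2 CPM.

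Xist, the RNA of the inactive X chromosome, was also lower in the Foxn1-cre pools and was named after its values were seen. It was at 883.7 and 768.5 CPM with PBS, 826.6 and 934.5 with DMSO and 429.7 and 461.6 with Foxn1-cre (log2 differences -0.89, SE 0.116, edgeR adjusted p = 0.00129, and -0.98, SE 0.116, adjusted p = 0.000192). The Foxn1-cre pools with floxed Nfe2l2 were at 362.4 and 373.7 CPM. Over all genes tested, 2.89% were called higher and 4.28% lower against PBS, and 7.64% and 9.0% against DMSO. Of 14 housekeeping genes 4 were called higher and 1 lower against PBS, and 5 and 2 against DMSO, with median log2 differences of 0.33 and 0.42. Against PBS they became 0 and 0 without Foxn1-cre replicate 1, 1 and 0 without PBS replicate 2, and 2 and 1 without either other library. The higher calls against DMSO became 2 without DMSO replicate 2 and 3 without DMSO replicate 1 or Foxn1-cre replicate 1, and the lower calls 1 whichever library was left out. Actb was a member called lower, at 3673 and 4246 CPM with Foxn1-cre against 5329 to 6509 in the other 4 control pools, a difference called in both comparisons but not against PBS without PBS replicate 2 or Foxn1-cre replicate 1 (adjusted p up to 0.107).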

How the data were processed

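The mTEChi values are raw counts per gene deposited by the authors for each library, and the Aire-GFP+ values are kallisto estimated counts per transcript deposited by the authors. The submitters' processing notes name STAR, featureCounts, kallisto, TopHat2 2.1.1, SAMtools 1.3.1 and build mm10, without saying which step used each. Per the labels' protocols, libraries were made by Smart-seq2 and Nextera XT, without molecular identifiers or strand, so overlapping genes cannot be told apart and intervals cover counting error only.

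Of 55011 genes, 53009 matched GENCODE M21 (GRCm38) by symbol. All 16 mTEChi libraries were fitted with a mean per group by the edgeR 4.0.16 quasi-likelihood test in R 4.3.3 (TMM, filterByExpr, 18418 genes, Benjamini-Hochberg adjusted p under 0.05, 95% intervals). Estimated counts were summed per gene and rounded (17923 genes tested). Gene-wise spread used edgeR dispersions without shrinkage. Detection used exact hypergeometric thinning, and library measures an exact permutation test over 15 splits. The edgeR step was tested on simulated data. Alternatives included DESeq2 1.42.0 and limma-voom (limma 3.58.1), other scaling and filters, and leaving out each library.

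Named genes are the 20 most abundant, the 20 (and 10 with 50 CPM or more) of highest spread, 15 apart in all 3 pairs, 10 most even, and up to 10 largest changes per direction with adjusted p under 0.05, 5 CPM or more and no overlap, leaving out predicted, clone and receptor segment names. List members were named as examples. The members and lists were chosen with earlier results of these data known. Not every gene that meets the rule is named, and some are not reported here. A group with no counts was given a floor of 3 counts.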

Additional observations from a re-analysis of the deposited data

How the results depend on the processing

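The 25 genes called between DMSO and PBS became 2 on library totals alone, 602 without a low-count filter, 210 with DESeq2, 6 with the 6 control libraries alone, 15 with a replicate block, 16 after thinning to equal depth (chosen after seeing the data), and 4 to 19 with a library left out. With the 6 control libraries alone the counts for Foxn1-cre against PBS and for any difference fell from 1321 to 382 and from 2432 to 1155, where fewer libraries estimate the spread. With a library left out they were 245 to 625 against PBS, 1167 to 1733 against DMSO and 728 to 2211 for any difference. The replicate block gave 1244, 2947 and 2327, and same-numbered libraries shared no deviation (correlations 0.0367, 0.000865 and -0.00722), so the numbers do not pair them. The 27094 genes detected became 16810 at 5 counts or more, 23519 at 1000000 counts, 17899 for protein-coding genes, and 26727 to 28524 with a library left out. The top share of 12.68% became 21.31% for 100 genes, 12.13% without mitochondrial genes and 12.56 to 12.82% with a library left out. The coefficient of variation of 0.282 became 0.188 at 20 CPM or more and 0.262 to 0.293 with a library left out. The 140 genes apart in all 3 pairs became 20 at a mean of 20 CPM, 96 with a prior count of 5, 172 with 0.5, and 139 after thinning, 97 of them shared; their Aire-induced share became 80% at 20 CPM, where 10.8% of all genes belong to the set. No library can be left out of that count, which needs every pair. Named genes of the comparisons kept their call in 546 refits and lost it in 224, and no direction reversed. The shallowest library, with 2027205 counts, sets the depth of the detection counts.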
